A study of Arabis alpina with 12 samples.

Results

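The leaf mRNA profile of Arabis alpina, accession Pajares, was described along the chromosomes by its 24657 listed genes, which are all the genes of the 1 deposited mRNA table and of the series. Arabis alpina is a perennial relative of Arabidopsis, and Pajares is a single accession, so no genotype, treatment or time was compared. Per the labels, the young leaves came from plants in soil kept at 22.5 °C, with days of 16 h light and nights of 8 h dark. The mRNA came from 1 of the 12 libraries of the series, made from total RNA, and the sources used here do not say whether it pooled plants. The other 11 libraries profile histone marks, methylated DNA and their inputs. They enter below only as lists of domains, beside the neighbouring genes of the upper 1% and the longest runs, and to set chromosome extents.

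Genes in plant genomes are packed densely on chromosome arms and thinly in regions rich in transposable elements, which lie mostly around the centromeres. A leaf's mRNA is dominated by a small number of very abundant transcripts, many of them for photosynthesis, over a broad base of moderately transcribed genes. In Arabidopsis, neighbouring genes are known to be somewhat alike in expression, in part because tandem duplicates lie side by side and in part because neighbours share open or closed chromatin. The files pair no identifier with a gene name or description, so neither the abundant genes nor leaf markers could be recognised by function, and identifiers are given as deposited. No sequence is shown, since no genome of this species was used here.

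Coverage in the deposited table is a signal per gene over its exons, never below 1, with no stated scaling to depth. Values are therefore read only within this library, where fewer cells of a type and less RNA per cell cannot be told apart. Intervals around medians and shares are 95% intervals over genes (order statistics and exact binomial limits). They measure spread and counting among genes, not replicate error, because the library has no replicate. Genes are not replicates either, so the values are descriptions without p-values.

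A small set of genes held much of the signal. The median coverage was 5.77 (interval 5.66 to 5.89), with quartiles of 2.33 and 12.9 and a highest value of 12378. Of all genes, 67.9% lay below 10 and 617 (2.50%) lay above 100. The 247 genes of the upper 1%, at or above 197.4, held 39.3% of the summed coverage. At the other end 2185 genes, 8.86% (interval 8.51% to 9.22%), stood at exactly 1.

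Genes on the 8 chromosomes and on unplaced scaffolds differed in level. The 2422 genes on 1590 scaffolds had a median of 3.47 (3.23 to 3.69), against 6.04 (5.93 to 6.15) for the 22235 genes on chromosomes. Of scaffold genes 19.8% stood at 1, against 7.67% of chromosome genes. Scaffold genes were also shorter, with a median span of 1485 bp against 2155 bp, but among genes of at least 500 bp the medians were still 3.39 on scaffolds and 6.11 on chromosomes. Since scaffolds hold few genes each, the results on neighbours and position below use the chromosomes.

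Gene span, from start to end with introns included, went with the spread of coverage more than with its middle. The median was lowest, 3.69 (3.38 to 3.94), in the shortest of 10 span classes, genes of 113 to 827 bp. It was 6.49 (6.04 to 6.87) in the fourth class, genes of 1516 to 1797 bp, and 5.16 (4.86 to 5.41) in the longest, genes of 4641 bp and over. The relation thus climbed and then declined. Spearman's rho was 0.12 over the 9861 genes of the 4 shortest classes and -0.071 over the other 14796, and over all genes together it was 0.019.

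The upper tail was widest in the second span class and narrowest in the longest. The 99th percentile of coverage was 626 in the second class, genes of 828 to 1221 bp. It lay at 236, 239 and 227 in the third, the fourth and the fifth class, and at 69.0 in the longest. The standard deviation of log2(coverage + 1) among genes was 1.82 in the second class and 1.18 in the longest. Of the genes in the upper 1%, 62 lay in the second class and 4 in the longest. Their median span was 1425 bp (quartiles 959 and 1990 bp), against 2091 bp (1373 and 3124 bp) over all listed genes. The shortest class carried both extremes, with 16.95% of genes at 1 (15.5% to 18.5%) and 38 genes in the upper 1%. The sources used here do not say how coverage was computed over a gene's exons, and the part of gene length in this spread was not tested.

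**Figure D1:**
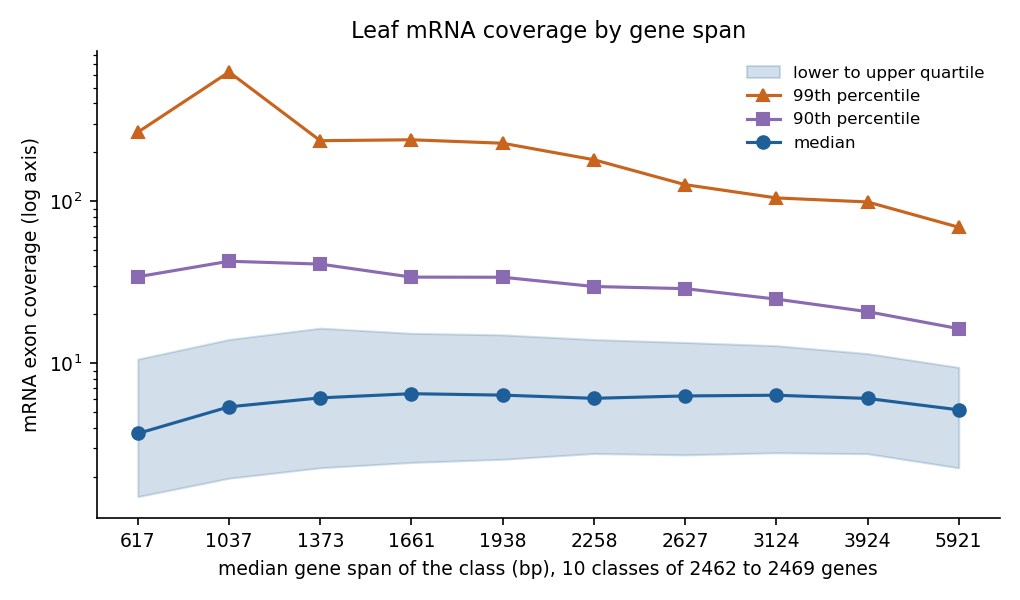
mRNA exon coverage (log axis) against gene span in 10 classes of equal size, each placed at its median span in bp. The shaded band runs between the quartiles and lines give the median, the 90th and the 99th percentile. The median stays between 3.69 and 6.49 while the 99th percentile goes from 626 in the second class to 69.0 in the tenth.

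Genes far from any listed neighbour were less covered than genes with a close listed neighbour. Gaps, and the words isolated and packed below, refer to listed genes only. Genes missing from the table may lie within gaps, since 6031 of 22227 pairs of neighbours do not have consecutive identifier numbers. The 1620 chromosome genes with gaps of at least 10 kb on both sides had a median of 4.82 (4.29 to 5.29). For the 3125 genes with gaps under 1 kb on both sides, and no overlap, the median was 6.51 (6.23 to 6.83). Genes with 1 gap under 1 kb and the other of 10 kb or more were near the packed genes, at 6.29 (5.96 to 6.75). The share at 1 still differed between them. It was 6.60% (5.71% to 7.58%) with 1 close neighbour and 3.68% (3.05% to 4.40%) with close neighbours on both sides, beside 13.6% (12.0% to 15.4%) of genes with wide gaps on both.

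The decline was gradual over the gap to the nearer neighbour. Median coverage was 6.56 (6.38 to 6.74) for gaps under 500 bp, 5.96 (5.64 to 6.28) for 1 to 2 kb, 4.83 (4.52 to 5.25) for 5 to 10 kb and 3.83 (3.22 to 4.68) for 20 to 50 kb. Intervals of adjoining classes overlapped in places, and the class of 10 to 20 kb, at 5.29 (4.69 to 5.82), lay above the class before it. Across 22219 genes with a neighbour on both sides, rho between coverage and the nearer gap was -0.079, and it was negative on each of the 8 chromosomes (-0.12 to -0.054). With coverage ranked within span classes it was -0.073, and with coverage ranked within 500 kb bins -0.065.

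The lower end of the distribution moved most. The share of genes at 1 was 4.97% (4.54% to 5.42%) for nearer gaps under 500 bp, 10.1% (9.08% to 11.1%) for 2 to 5 kb and 15.2% (11.9% to 19.0%) for 20 to 50 kb. In contrast the share in the upper 1% varied without order, at 1.01% for under 500 bp, 1.34% for 1 to 2 kb, 0.77% for 2 to 5 kb and 1.19% for 20 to 50 kb. Without the genes at 1, rho between coverage and the nearer gap was -0.033. Very abundant transcripts were therefore found among isolated and among packed genes.

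The same contrast was seen at most gene lengths. In 10 of 10 span classes a larger share of genes stood at 1 where the nearer gap was at least 10 kb than where it was under 500 bp. In 9 of 10 the median was lower too. The exception was the ninth class, genes of 3447 to 4640 bp, with a median of 8.15 for 152 isolated genes and 6.36 for 1024 packed ones. In the longest class 21.6% of isolated genes stood at 1, against 4.13% of packed genes.

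**Figure D2:**
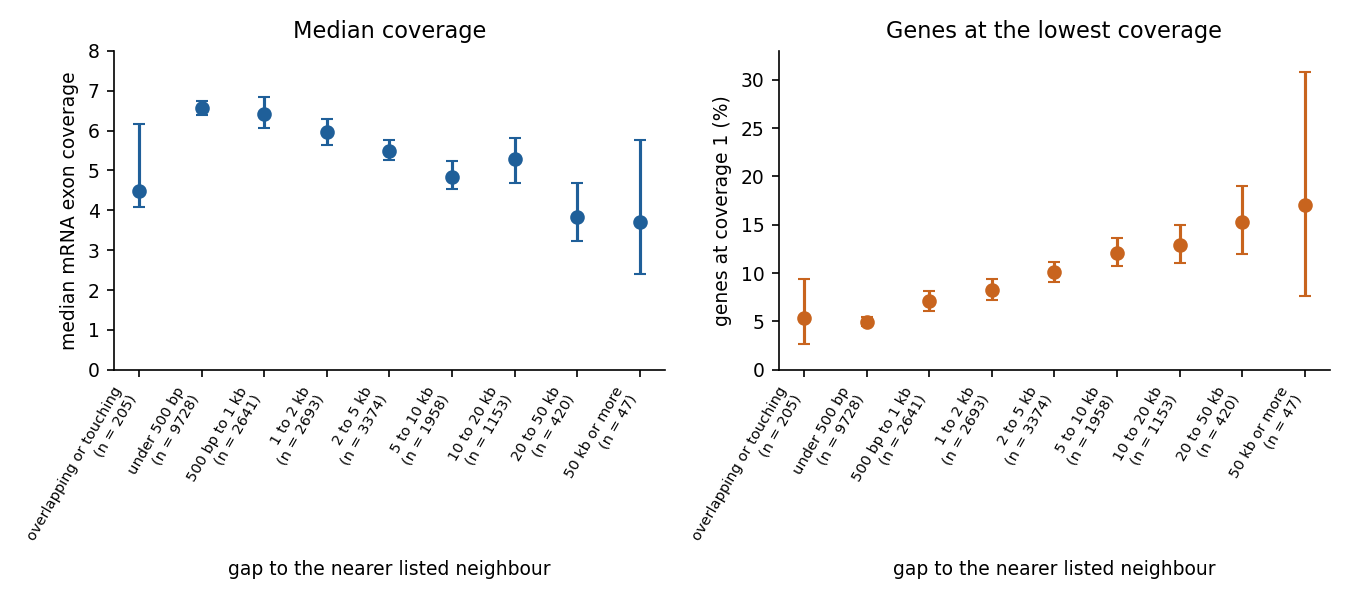
Median mRNA exon coverage (left) and the share of genes at coverage 1 (right) for chromosome genes by the gap to their nearer listed neighbour, with 95% intervals over genes. From gaps under 500 bp to gaps of 20 to 50 kb the median goes from 6.56 to 3.83 and the share at 1 from 4.97% to 15.2%.

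Chromosomes were nearly alike. Median coverage ran from 5.42 (5.18 to 5.83) on chromosome 2 to 6.29 (6.03 to 6.59) on chromosome 8. Chromosome 3, at 6.26 (5.94 to 6.60), came next to chromosome 8. The interval of chromosome 2 lay below those of chromosomes 3 and 8, and all other intervals overlapped. Chromosome 2 also had the largest share of genes at 1, 9.25% (8.05% to 10.6%), and the lowest number of listed genes per Mb, 74.8. Chromosome 8 had the smallest share at 1, 6.82% (6.09% to 7.62%). Membership of a chromosome held 0.063% of the variance of log2(coverage + 1).

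Position between the ends of a chromosome mattered little. With each chromosome cut into 10 equal stretches, counted from the start of its sequence, medians lay between 5.70 (5.29 to 6.12) in the fourth and 6.29 (6.02 to 6.63) in the ninth. Genes within 1 Mb of a chromosome's end had a median of 6.56 (6.17 to 7.12), and those at least 10 Mb away 5.98 (5.75 to 6.21). The share at 1 was 5.92% (4.98% to 6.99%) within 1 Mb and 8.02% (7.29% to 8.79%) at 10 Mb or more. There was no steady gradient, since genes 1 to 2 Mb from an end already had a median of 5.81 (5.42 to 6.18) and 8.35% at 1 (7.14% to 9.69%). Genes near ends were also more closely packed, with a median nearer gap of 518 bp within 1 Mb and 748 bp at 10 Mb or more, and the part of packing in the difference was not tested. Spearman's correlation between coverage and the distance to the nearer end was -0.016.

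Local gene density went weakly with coverage. Over single genes, Spearman's rho between coverage and the number of listed genes in the gene's own 500 kb bin was 0.054. Across 470 bins of 500 kb with at least 10 listed genes, the number of genes in a bin and its median coverage had Spearman's rho of 0.23 and Pearson's r of 0.18. Within single chromosomes rho ran from 0.086 to 0.32. Without the 2 bins farthest from the median number of genes r was 0.18. The share of genes at 1 ran the other way, with rho of -0.26 (-0.43 to -0.036 within chromosomes). In the 117 bins with fewest genes (10 to 30), the 2651 genes had a median of 5.41 (5.07 to 5.73), and 11.01% stood at 1. In the 118 bins with most genes (60 to 105), the 8697 genes had a median of 6.46 (6.27 to 6.65), and 6.45% stood at 1. Neighbouring bins are not independent, and a median over few genes varies more by itself.

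Differences between bins were small beside those between genes of 1 bin. Bin medians had quartiles of 4.99 and 7.08, close around 5.95. Differences between 500 kb bins held 0.65% of the variance of log2(coverage + 1), those between 100 kb bins 2.12% and those between 50 kb bins 2.67%. For log2 gene span the shares were 0.91%, 2.52% and 5.09%. The lowest bin median, 1.94 (quartiles 1.03 and 9.51), belonged to 20 genes on chromosome 1 (24000001 to 24500000 on the authors' assembly, whose build the sources used here do not give), of which 55% were in the lower 25% of all listed genes. The highest, 13.8 (quartiles 4.12 and 18.0), belonged to 21 genes on chromosome 2 (14500001 to 15000000), of which 57.1% were in the upper 25%. Both bins held fewer genes than the median of 47 per bin.

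**Figure D3:**
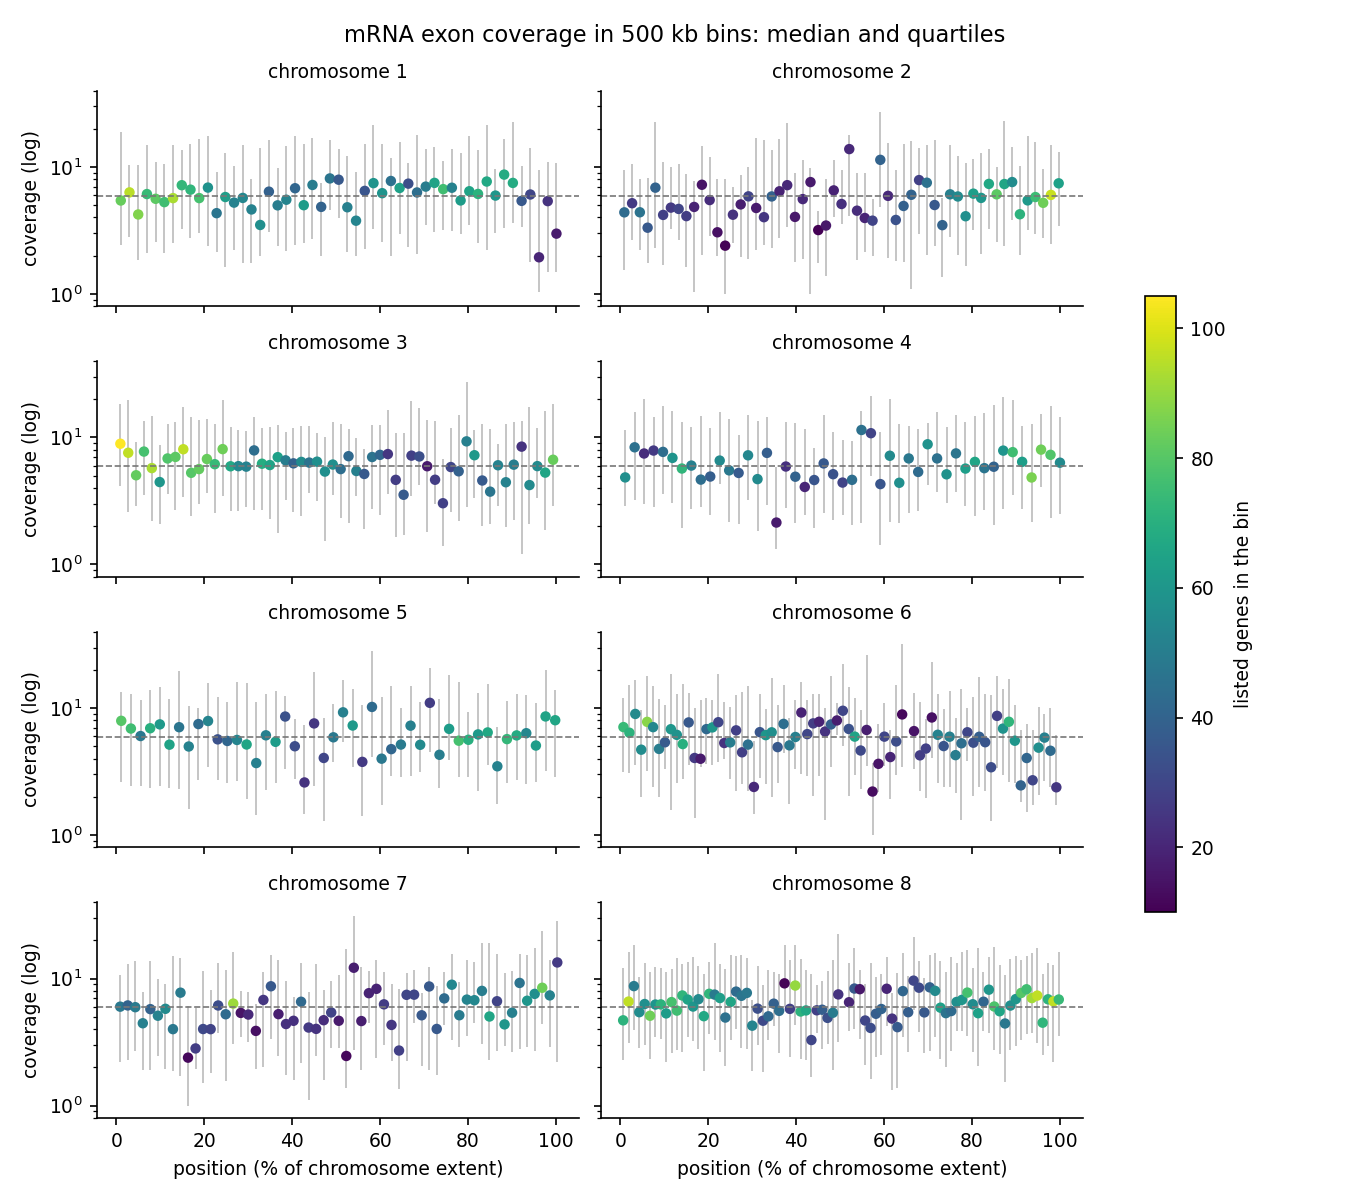
Median mRNA exon coverage (points, log axis) and quartiles (grey lines) of genes in 500 kb bins, placed by percent of the extent of each of the 8 chromosomes and coloured by the number of listed genes in the bin. The dashed line is the median of all bins, 5.95. Bin medians stay between 1.94 and 13.8, and the quartiles within most bins reach across the dashed line.

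Neighbouring genes were only slightly more alike than any pair of genes of their chromosome. Over 22227 pairs of neighbours the median difference in log2(coverage + 1) was 1.29 (1.27 to 1.31), a 2.44-fold difference in coverage + 1. Over all 32736900 pairs of genes of the same chromosome it was 1.36, or 2.57-fold, which is also what a shuffled order gives on average. Of neighbours 40.5% lay within 1 log2 unit of each other, against 38.2% of all pairs. Spearman's correlation over neighbours was 0.049, against -0.00036 for a shuffled order, and it was positive on each chromosome, from 0.031 on chromosome 4 to 0.091 on chromosome 7. Neighbours resembled each other in gene span by about as much, with rho of 0.055. With coverage ranked within span classes rho between neighbours was 0.044.

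The likeness was seen at both ends of the range, and pairs in its middle were not counted. Both neighbours were high, that is in the upper 25% of listed genes at 12.9 or more, in 7.51% of neighbour pairs, against 6.79% of all pairs. Both were low, in the lower 25% at 2.33 or less, in 6.01% of neighbour pairs, against 5.33% of all pairs. One was high and the other low in 11.4% of neighbour pairs, against 11.98% of all pairs. Of 1606 genes with a high gene on both sides 32.6% (30.3% to 35.0%) were high, against 24.1% (23.3% to 24.8%) of 12283 genes with no high neighbour. Of 1247 genes with a low gene on both sides 27.6% (25.1% to 30.2%) were low, against 21.8% (21.1% to 22.5%) of 13104 genes with no low neighbour. Most genes between high neighbours were therefore not high themselves.

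Likeness faded within a few genes. Spearman's correlation was 0.032 for genes 2 apart in the listed order and 0.018 for genes 3 apart. At 12 spacings from 4 to 100 genes apart it lay between -0.0018 and 0.026, and the median difference lay between 1.34 and 1.38. The highest of these values, 0.026, was at 100 genes apart and stood above those at 4 to 50 genes apart. With coverage ranked within 500 kb bins, rho between neighbours was 0.018, where such ranks give -0.021 to neighbours in any order.

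Overlapping genes were the exception. The 105 pairs of neighbours whose spans overlapped had rho of 0.51 and a median difference of 0.36 (0.23 to 0.61), and 75.2% lay within 1 log2 unit. The library kit named in the labels does not mark strand and the sources used here do not say how reads in shared exons were assigned. Whether reads of overlapping genes were counted for both was not tested. Among pairs that do not overlap likeness was slight, and it was greater under 500 bp apart than at 20 to 50 kb. The median difference was 1.21 (1.17 to 1.25) for 5760 pairs under 500 bp apart, 1.27 (1.21 to 1.33) for 2387 pairs 1 to 2 kb apart, 1.32 (1.28 to 1.38) for 3179 pairs 5 to 10 kb apart and 1.38 (1.29 to 1.46) for 1793 pairs 20 to 50 kb apart. Spearman's correlation in those classes was 0.057, 0.049, 0.037 and 0.0014. Other classes broke the order. The 2013 pairs 500 bp to 1 kb apart had a median difference of 1.31 (1.22 to 1.39) and rho of 0.064. The 531 pairs 50 kb or more apart had a median difference of 1.29 (1.14 to 1.45) and rho of 0.060. In finer classes under 500 bp rho ran from 0.0015 at 200 to 299 bp to 0.12 at 50 to 99 bp.

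Close neighbours of very different level occurred, but less often than among all pairs of a chromosome. Of pairs under 500 bp apart 9.64% joined a high and a low gene, against 11.98% of all pairs. Both were high in 8.06% and both were low in 4.13% of the pairs under 500 bp apart. Of pairs 20 to 50 kb apart 13.6% joined a high and a low gene, 6.08% were both high and 7.92% both low. The share of low pairs thus grew with distance, as did the share of single genes at 1. Of single genes with a nearer gap under 500 bp 19.3% were low and 26.7% high, against 23.3% and 26.0% of all chromosome genes. Pair shares depend on such shares of single genes, and their part in these contrasts was not tested.

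**Figure D4:**
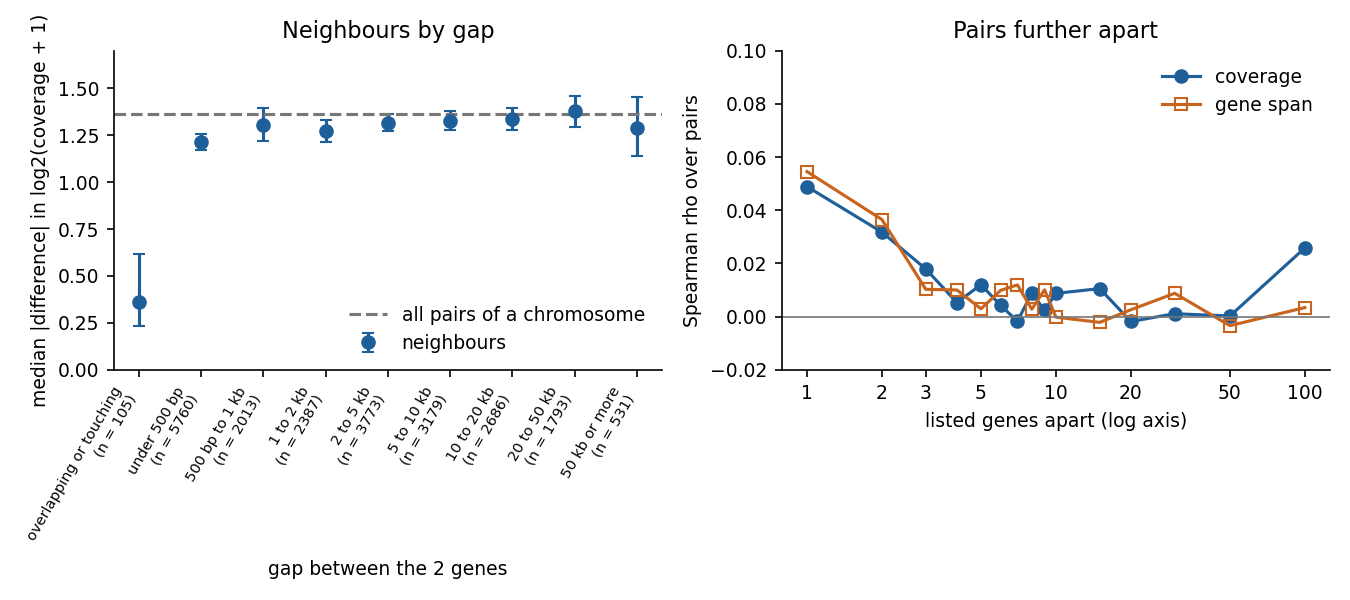
Left, median absolute difference between neighbouring genes in log2(coverage + 1) by the gap between them, with 95% intervals over pairs, beside the value over all pairs of a chromosome (dashed, 1.36). Right, Spearman's rho over pairs of genes by the number of listed genes apart (log axis), for coverage and for gene span. Overlapping pairs sit at 0.36, all other classes between 1.21 and 1.38, and rho for coverage is 0.049 for neighbours and 0.018 at 3 genes apart.

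Named neighbours showed both extremes. The pair whose lower member was highest were Aa_G248930 (chromosome 1, 21216948 to 21218015) at 11265 and Aa_G248920 (21220050 to 21221054) at 12378, 2034 bp apart and of like span, 1068 and 1005 bp. The genes on either side of that pair stood at 26.7 and 6.45, so the high level ended at the pair. The largest difference was between Aa_G253980 (chromosome 6, 35720728 to 35722482) at 10825 and its neighbour Aa_G110140 (35717515 to 35718771) at 1, only 1956 bp apart. The genes beyond them stood at 18.4 on the side of Aa_G253980 and at 121 on the side of Aa_G110140.

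Genes of the upper 1% lay side by side more often than all pairs of a chromosome did. Of 22227 neighbour pairs 7 had both members among the 228 such genes on the chromosomes, where the share of all pairs gives 2.17. The 7 pairs held 12 genes on 4 chromosomes. On chromosome 4 a pair stood at 5063 and 1434, with spans of 1055 and 1052 bp. On chromosome 5, 3 genes in a row, which make 2 of the pairs, stood at 2021, 589 and 823. On chromosome 2 a pair stood at 431 and 465, 55 bp apart, and a row of 3 other genes stood at 436, 263 and 259. Those 5 genes lay wholly inside 1 domain of 5mC and 1 domain of H3K27me1 and carried no H3K4me3, and without that domain 4 of the pairs are left. The other 7 genes carried H3K4me3 over 88.4% to 100% of their spans, and no 5mC or H3K27me1. The one of them at 589 also carried H3K27me3 over 62.1% of its span. Shares by part of span were not counted over all genes. By another measure, at least 200 bp of a mark, 76.2% of all listed genes carried H3K4me3 and 13.1% H3K27me3. For 5mC it was 5.41% and for H3K27me1 4.6%. Among high genes on the chromosomes these 4 shares were 95.7%, 6.04%, 2.04% and 1.21%. Members of 6 of the 7 pairs had spans within 1.2 times of each other. How many other pairs have spans so alike was not counted, and the upper 1% genes are short as a set (quartiles 959 and 1990 bp). Whether members of a pair are copies of each other, and could share reads, was not tested.

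Runs of high genes were somewhat more frequent than independent genes would give, and short. Among 5775 high genes on the chromosomes there were 360 runs of at least 3, against 288 expected if each gene were high independently at the same share. There were 119 runs of at least 4, against 74.8 expected, and 31 of at least 5, against 19.4. The 31 runs lay on all 8 chromosomes and held 169 genes, with a median coverage of 24.3, the same as the 24.3 of all high genes. Their members were 1454 bp apart in the median, against 2514 bp for all neighbours.

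The longest high run had 9 genes over 64.9 kb of chromosome 4 (12782275 to 12847148), from Aa_G24580 to Aa_G286500. In order they stood at 15.4, 12.9, 14.5, 28.2, 19.7, 50.6, 70.2, 38.2 and 14.7. Several of these values lay just above the limit of 12.9, and none was in the upper 1%. The listed genes just outside stood at 1.28 and 2.45, so the run ended sharply on both sides. Gaps within it ran from 112 to 18961 bp. Identifier numbers skip within it, and with the run ended at each skip no run of at least 5 genes is left of it. As context from the domain lists, all 9 genes carried at least 200 bp of H3K4me3, a mark of active gene starts, and none carried that much of H3K27me3, H3K27me1 or 5mC. Among all 24657 listed genes at least 200 bp of H3K4me3 was carried by 76.2%, of H3K27me3 by 13.1%, of 5mC by 5.41% and of H3K27me1 by 4.6%. Among all high genes on the chromosomes 95.7% carried that much H3K4me3 and 6.04% that much H3K27me3.

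Runs of low genes were fewer and looser than those of high genes, among fewer genes, and also more frequent than independent genes would give. Among 5186 low genes there were 251 runs of at least 3, against 216 expected, and 22 of at least 5, against 11.8. The 22 runs held 120 genes, with a median coverage of 1.32 and 33.3% of genes at 1, against 1.33 and 32.9% for all low genes. Their members were 5080 bp apart in the median, and a median of 1630 bp in span, against 1956 bp for all low genes. Little or no excess was left when runs were ended at wide or interrupted spacing. With runs ended at gaps over 20 kb 9 runs were left, against 8.20 expected, and with runs ended wherever identifier numbers skip a step 1 was left, against 3.87 expected. Under the same conditions high runs numbered 22, against 13.6 expected, and 11, against 6.46 expected. The expected numbers take the same share of low genes at all spacings. That share was 19.3% for nearer gaps under 500 bp and 36.2% for 20 to 50 kb, so the part of spacing in the excess was not tested. Genes missing from the table may lie between listed neighbours where numbers are skipped.

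The longest low run had 8 genes over 34.8 kb of chromosome 7 (18724147 to 18758921), from Aa_G156160 to Aa_G696120. In order they stood at 2.13, 1.56, 1, 1.38, 1.46, 1.38, 1.23 and 1. This run too has skipped identifier numbers, and ended at each skip it leaves no run of at least 5 genes. The listed genes just outside stood at 2.94 and 6.25, so this run faded into its surroundings on 1 side and ended more clearly on the other. Of its 8 genes 3 carried at least 200 bp of H3K27me3, the mark of Polycomb repression, and none carried that much of H3K4me3, H3K27me1 or 5mC. Among all low genes on the chromosomes 31.6% carried that much H3K27me3 and 44.3% that much H3K4me3, while 11.4% carried H3K27me1 and 10.7% 5mC. Genes at exactly 1 formed shorter runs, with 158 of at least 2 against 121 expected and a longest of 5.

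**Figure D5:**
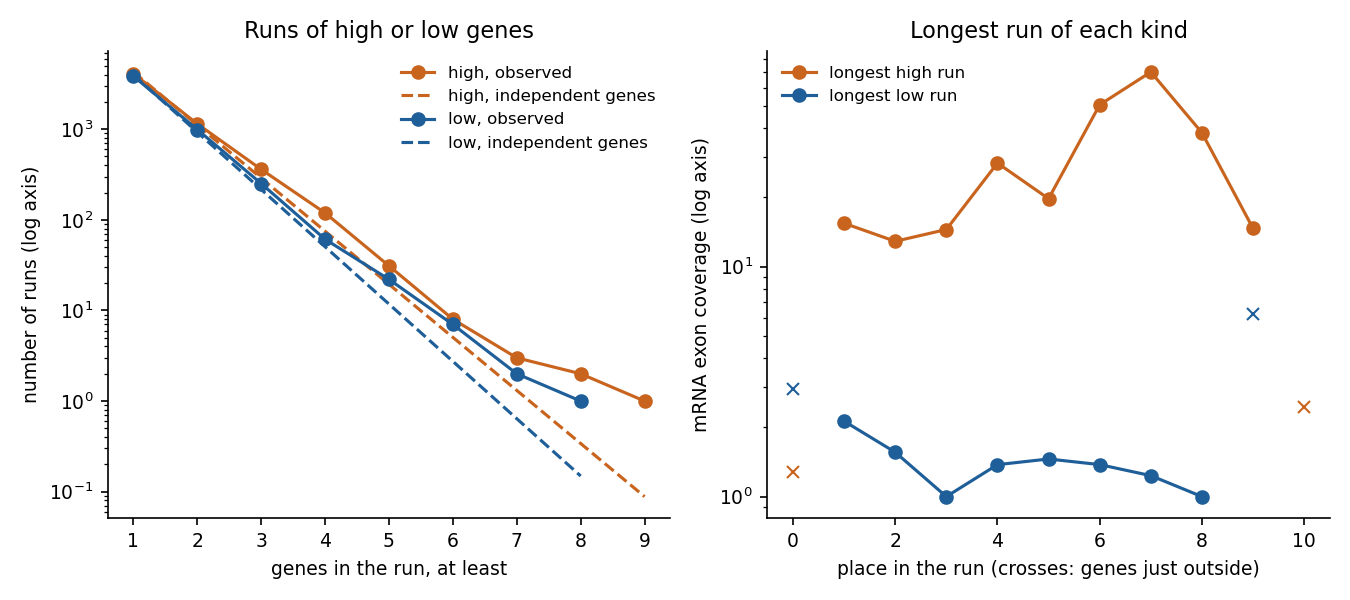
Left, number of runs of consecutive high or low genes on the chromosomes by minimum length (log axis), observed and expected for independent genes. Right, coverage (log axis) of each gene in the longest high and the longest low run in order of position, with the listed genes just outside as crosses. Observed runs of at least 5 number 31 for high and 22 for low genes, against 19.4 and 11.8 expected, and the genes outside the high run stand at 1.28 and 2.45.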

How the data were processed

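The mRNA came from 1 library of young leaves. The deposited table holds, by its name, exon coverage per gene, a signal that the authors give without header, scaling or strand. Per the submitters' processing notes Bowtie and SICER were used, without versions. Domain positions in the 4 other lists (unit as deposited: base positions) served as context and to set chromosome extents. Each chromosome was taken to run from its first base to the end of its last listed gene or domain. That may fall short of the assembled end. Depth is unknown and the sources used here do not give the genome build.

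Genes were sorted by start on each sequence. A gap is the start of the next listed gene minus the end of the gene before it, minus 1. Differences used log2(coverage + 1). High and low mean the upper and lower 25% of all listed genes. Spearman's correlation over neighbours enters each pair in both orders. No order was shuffled: neighbours were set beside all pairs of genes of the same chromosome, and runs beside the number a formula gives for independent genes. Variance shares come from a one-way decomposition. The statistics were checked on simulated data (Python 3.11.15, numpy 2.4.6, pandas 2.3.3, scipy 1.17.1).

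Named were the neighbour pair with the highest lower member, the pair with the largest difference, the longest run of each kind, and the highest and lowest bin. The genes and the analyses were chosen with earlier results of these data known, and the upper 1% pairs after seeing the values.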

Additional observations from a re-analysis of the deposited data

How the results depend on the processing

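Of 49 alternative values, 28 stayed within the interval of the value reported (for rho, the interval by Fisher's transformation) or, for counts, within 1.5 times. Another 20 moved further, and 1 changed sign. This tally is not a measure of robustness. Other pseudocounts rescale the difference, stricter cuts tend to lower run counts, and single chromosomes were set against the interval of all neighbour pairs. Spearman's correlation of coverage with span was 0.0053 on chromosomes only, 0.0011 without genes under 500 bp, and -0.021 without genes at 1. Without genes at 1, rho with the nearer gap was -0.033 and rho of bin medians with genes per bin 0.14. In 250 kb bins rho with genes per bin was 0.13. Spearman's correlation of neighbours was 0.018 in ranks within bins, 0.031 on chromosome 4, 0.034 on chromosome 8 and 0.091 on chromosome 7. The median difference of neighbours was 1.58, 1.54 and 0.79 with pseudocounts of 0, 0.1 and 5, against 1.67, 1.63 and 0.83 over all pairs, and 1.27 for consecutive identifier numbers. Runs of at least 5 high genes numbered 9 for the upper 20% (6.83 expected), 1 for the upper 10% (0.25 expected) and 11 where skipped numbers end a run. Low runs numbered 12 for the lower 20% (3.91 expected), 1 for the lower 10% (0.10 expected), 9 where gaps over 20 kb end a run and 1 where skipped numbers do. Why values moved was not tested, and neither was the part of fewer genes or pairs in it. No paired analysis was possible because the mRNA has 1 library, and leaving out a replicate was not possible for the same reason. Depth is unknown, so no limit of detection can be given. 3 alternatives, on pairs 55 or 94 bp apart and on spans ending in 5, were chosen after seeing the data.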

Other observations

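Gene spans in the table were not spread evenly over their last digit. Of 24657 spans, 9331 (37.8%) ended in 5, while each other last digit was held by 6.42% to 7.89% of genes. Genes with spans ending in 5 had a median coverage of 6.48 (interval over genes 6.29 to 6.66), against 5.35 (5.22 to 5.50) for the other 15326, and 6.47% of them stood at 1, against 10.3%. Their median was the higher one in 10 of 10 span classes. Spans ending in 5 made up 26.7% of genes on scaffolds and 39.1% of genes on chromosomes. The sources used here do not say how the gene models were made, and the part this plays in coverage was not tested.

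Some exact gaps between neighbours recurred. Gaps of 6 bp occurred in 250 pairs, of 55 bp in 149, of 1, 2, 3 and 4 bp in 99 to 119 each, and of 94 bp in 86. Pairs 55 bp apart had a median difference of 0.63 (0.46 to 0.83) in log2(coverage + 1) with rho of 0.23, and pairs 94 bp apart 0.76 (0.52 to 1.04) with rho of 0.44, against 1.29 and 0.049 for all neighbours. The pairs 6 bp apart, the most frequent gap, were near all neighbours, with a median difference of 1.22 and rho of 0.10. Those 1 bp apart had 0.95 and rho of 0.24, and those 2, 3 or 4 bp apart 1.08 to 1.26 and rho of 0.016 to 0.049. The kinds 55 and 94 bp apart each lay on all 8 chromosomes. Both spans ended in 5 in 40.3% of the pairs 55 bp apart and in 15.1% of those 94 bp apart, against 15.3% of all neighbours. In finer classes the 872 pairs 50 to 99 bp apart had a median difference of 1.01 (0.90 to 1.07) and rho of 0.12, and the 547 pairs 10 to 49 bp apart 1.26 (1.13 to 1.40) and rho of 0.0038. These classes were picked after their values were seen. Without the pairs 55 or 94 bp apart, rho over all neighbours was 0.047.

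Neighbours on scaffolds, 832 pairs, had rho of 0.11 and a median difference of 1.15, against 1.22 over all pairs of genes of the same scaffold. Pairs with consecutive identifier numbers were both high in 7.90% and both low in 5.34% of 16196 pairs, and pairs with other steps in 6.45% and 7.79% of 6031 pairs.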
